A study of Mus musculus with 2 samples.

Results

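The miR-10 and miR-196 genes of the mouse Hox clusters were examined in microRNA (miRNA) sequencing of adrenal glands. The 5 genes Mir10a, Mir10b, Mir196a-1, Mir196a-2 and Mir196b were found by their GENCODE M21 symbols, and all 5 were among the 2202 miRNA genes of the count files. The study held 1 group of 2 libraries, replicate 2 and replicate 1, each of male B6CASTF1/J adrenal glands at an age of 10 days. The sample descriptions do not say how many animals gave each library. B6CASTF1/J mice are the first-generation hybrids of C57BL/6 and CAST/EiJ, both biosamples refer to the same donor record, and no treatment or mutation is labelled. No second condition was present, so the genes were compared with each other and replicate 2 was set against replicate 1, without a test of a condition.

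Hox genes encode the transcription factors that give cells their place along the body axis, and they lie in 4 clusters in which the order of the genes follows the order in which they are used from head to tail. A miRNA is a short RNA cut from a hairpin, and it pairs through its seed, bases 2 to 8, with sites in the 3′ untranslated regions (UTRs) of messenger RNAs, which are then repressed. The miR-10 genes lie beside the Hox genes of paralogue group 4 and the miR-196 genes beside those of group 9, and both families are known to repress Hox messenger RNAs. In the mouse adrenal gland, complexes of Pbx, Prep and Hox proteins are known to act on the fetal adrenal enhancer of Nr5a1, the master regulator of steroid-producing cells.

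The mature 5′ arms of the 5 genes, shown because their likeness decides how reads can be assigned, form 2 seed groups. The seed is in capitals and the sequences are those of RefSeq on GRCm38.p6.
miR-10a-5p: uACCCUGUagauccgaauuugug
miR-10b-5p: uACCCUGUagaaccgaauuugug
miR-196a-5p, from both Mir196a-1 and Mir196a-2: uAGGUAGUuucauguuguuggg
miR-196b-5p: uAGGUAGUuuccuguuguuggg

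Counted from 1 at the 5′ end, miR-10a-5p and miR-10b-5p differ by the single substitution U12A over 23 bases. The miR-196a and miR-196b forms also differ by a single substitution, A12C, over 22 bases. In the RefSeq entries searched, which left out 1 chromosome, no other gene carried the seed of miR-10, held by 2 genes. The same was true of the seed of miR-196, held by 3. Each family resembles another one at an offset of 1 base. Bases 2 to 8 of miR-196a-5p are the same 7 letters as bases 3 to 9 of let-7g-5p, a member of the let-7 family of differentiated cells. Bases 7 to 16 of miR-10a-5p are the same 10 letters as bases 6 to 15 of miR-99a-5p. With the shift, each keeps a seed of its own.
let-7g-5p: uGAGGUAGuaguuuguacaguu
miR-99a-5p: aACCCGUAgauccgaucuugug

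The miR-10 genes were among the most abundant miRNA genes of the gland, and the miR-196 genes were far lower. Values are counts on the gene's own strand, given in CPM, the usual scaling to the assigned reads of a library, of which there were 3080062 in replicate 2 and 2843734 in replicate 1. Together the 5 genes held 3.05% of the assigned reads in replicate 2, with a 95% Wilson interval from 3.03 to 3.07, and 4.40% in replicate 1, with one from 4.37 to 4.42, or 3.72% ± 0.96 (SD, n = 2). The miR-10 pair made up nearly all of this share, with 2.93% in replicate 2 and 4.30% in replicate 1, while the 3 miR-196 genes held 0.113% in replicate 2 and 0.0931% in replicate 1. Counted against all reads of the library, with unmapped and unassigned ones included, the mean share of the 5 genes over the libraries was 1.36%. Bulk tissue gives 1 value per gene and library, so fewer cells of a type and less RNA per cell cannot be told apart.

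Mir10a, which lies upstream of Hoxb4, had 19211 CPM in replicate 2 and 30132 CPM in replicate 1. It stood at rank 14 of all miRNA genes in replicate 2 and at rank 9 in replicate 1, with a mean of 24671 ± 7723 CPM (SD, n = 2). Mir10b, which lies upstream of the coding exons of Hoxd4, had 10127 CPM in replicate 2 and 12914 CPM in replicate 1 and stood at rank 25 in replicate 2 and rank 22 in replicate 1. Its mean was 11521 ± 1971 CPM, and both of its values lay below both values of Mir10a. Within a library, Mir10a gave 1.90 times the reads of Mir10b in replicate 2 and 2.33 times in replicate 1. On the log2 scale the ratio was 1.07 ± 0.21 (SD, n = 2). Mir10a thus held 65.5% of the reads of the pair in replicate 2 (95% Wilson interval 65.2 to 65.8) and 70.0% in replicate 1 (69.7 to 70.3). Both mature 5′ arms have 23 bases, so this ratio is the same per base of the miRNA. Per base of the annotated hairpin, which has 110 bases for Mir10a and 68 for Mir10b, the log2 ratio was 0.38.

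Mir196b, in the Hoxa cluster, had the most assigned reads of its family, with 988 CPM in replicate 2 and 738 CPM in replicate 1. It was at rank 86 in replicate 2 and at rank 102 in replicate 1, and its mean was 863 ± 177 CPM (SD, n = 2). Mir196a-2, in the Hoxc cluster, had 132 CPM in replicate 2 and 174 CPM in replicate 1, from 408 reads in replicate 2 and 496 in replicate 1, with a mean of 153 ± 30 CPM. Mir196a-1, in the Hoxb cluster, had 11.7 CPM (95% Wilson interval 8.44 to 16.2) in replicate 2 and 18.3 CPM (13.9 to 24.0) in replicate 1. These values rest on 36 reads in replicate 2 and 52 reads in replicate 1, and their mean was 15.0 ± 4.67 CPM. The order Mir10a, Mir10b, Mir196b, Mir196a-2, Mir196a-1 was the same in both libraries, and no gene's range over the libraries overlapped that of its neighbour in this order. Summed, the miR-10 pair gave 25.9 times the reads of the 3 miR-196 genes in replicate 2 and 46.2 times in replicate 1, a log2 ratio of 5.11 ± 0.59 (SD, n = 2).

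**Figure D1:**
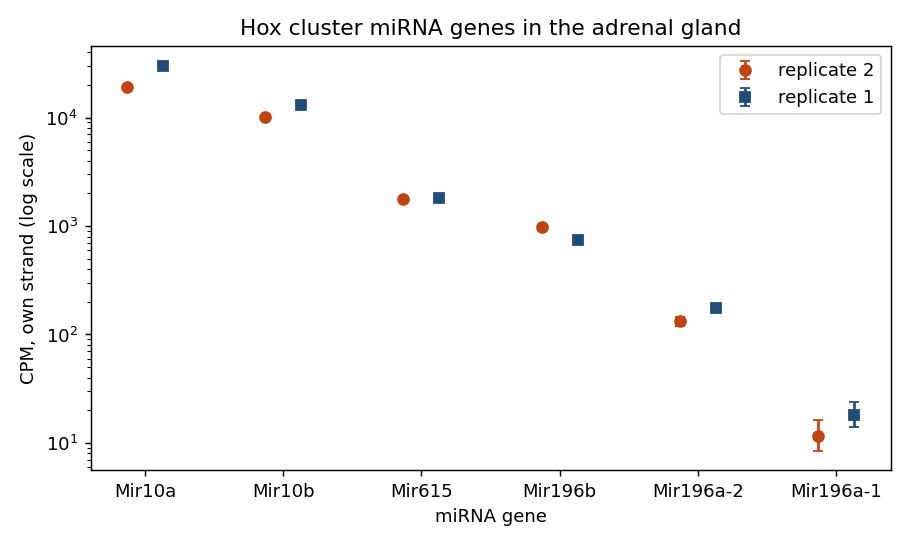
Own-strand CPM (log scale) of the 5 genes and of Mir615, another miRNA gene of the Hoxc cluster, in replicate 2 (circles, left) and replicate 1 (squares, right), with 95% Wilson intervals of counting error, many smaller than the symbols. Mir10a and Mir10b lie at 10127 CPM or above in both libraries, and Mir196a-1 lies at 11.7 and 18.3 CPM.

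The levels of Mir196a-1 and Mir196a-2 count only reads that the authors' counting gave to a single gene. Their hairpins are printed with the mature 5′ arm in capitals, since it is the longest run they share.
Mir196a-1 hairpin, chr11:96265164-96265265, plus strand: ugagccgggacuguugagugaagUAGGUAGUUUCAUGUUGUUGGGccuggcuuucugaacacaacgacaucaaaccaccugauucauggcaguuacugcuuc
Mir196a-2 hairpin, chr15:102973350-102973434, plus strand: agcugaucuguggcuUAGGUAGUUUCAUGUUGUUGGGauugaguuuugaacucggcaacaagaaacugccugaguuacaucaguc

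The longest run shared by these hairpins was 22 bases, exactly the mature miR-196a-5p, and the next base on either side differs. A read of the mature sequence alone therefore has 2 equal places, and reads mapped to several places, 25.9% of all reads in replicate 2 and 27.5% in replicate 1, are given to no gene in the files. How many of them were miR-196a-5p is not shown by the files. The counts of both genes are therefore the part that reads with more sequence, or of the 3′ arm, could place, and the ratio of Mir196a-2 to Mir196a-1 (11.3 in replicate 2 and 9.54 in replicate 1) describes that part alone. The excess of Mir196b over both miR-196a genes together, 6.85-fold in replicate 2 and 3.83-fold in replicate 1, and that of the miR-10 pair over the family have the same limit. Their 3′ arms share a run of only 5 bases.
miR-196a-1-3p: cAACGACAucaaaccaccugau
miR-196a-2-3p: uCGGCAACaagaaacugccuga
For the remaining genes the overlap was shorter. The longest run that a hairpin shared with any other hairpin of the RefSeq entries searched was 15 bases for Mir10a and Mir10b, with each other. It was 12 bases for Mir196b.

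For all 5 genes the count without strand was the same as on the own strand, and the opposite-strand count was 0 in both libraries. A count of 0 was taken to allow up to 3 reads, for counting error only. The arms of a hairpin are not told apart in the files, which give 1 count per gene.

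Along the clusters, the abundant miR-10 genes lay nearer the low-numbered end of the Hox genes examined and the miR-196 genes farther from it, as shares of the length these genes span. In the Hoxb cluster, Mir10a (ENSMUSG00000065519.1, chr11:96317165-96317274, plus strand) lies between genes, 12030 bases after the last coding exon of Hoxb5 and 1495 bases before the first of Hoxb4. Mir196a-1 (ENSMUSG00000065546.1) lies in the same cluster on the same strand, 51899 bases upstream of Mir10a, between Hoxb13 and Hoxb9, whose nearest coding exon is 6276 bases away. With a single cluster, strand and direction in common, Mir10a gave 1644 times the reads of Mir196a-1 in replicate 2 and 1648 times in replicate 1, with the limit on Mir196a-1 given above. Mir10a was 51.0 kb and Mir196a-1 103 kb from the Hoxb1 end of this cluster, whose 10 genes span 173941 bases by the annotation.

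Mir10b (ENSMUSG00000065500.3, chr2:74726070-74726137, plus strand) lies in introns of Hoxd4 and Hoxd3 transcripts, 1141 bases before the nearest coding exon of Hoxd4 and 39.0 kb from the Hoxd1 end of its cluster. Mir196b (ENSMUSG00000065443.1, chr6:52230081-52230165, minus strand) lies between the coding exons of Hoxa10, 2343 bases upstream, and those of Hoxa9, 3976 bases downstream. It falls in an intron of 1 noncoding Hoxa9 transcript and in an exon of 2 others. Mir196a-2 (ENSMUSG00000065488.2) lies 2277 bases after the coding exons of Hoxc10 and 8218 bases before those of Hoxc9, inside an intron of a long noncoding transcript of Hoxc5. Each member thus sat upstream of a gene of group 4 or group 9 in the direction of transcription. As shares of the length spanned by the Hox genes examined in each cluster, from the low-numbered side, the miR-10 genes lay at 29.3% and 40.3%, and the miR-196 genes at 59.2% (Mir196a-1), 54.8% (Mir196a-2) and 68.8% (Mir196b). Within the miR-196 family Mir196b, farthest along as a share, had the most assigned reads, with the limit on the miR-196a genes given above. In kb from the low-numbered end Mir196a-1, at 103 kb, was farther than Mir196b, at 67.7 kb. The spans start at Hoxb1 and Hoxd1 but at Hoxc4 in the Hoxc cluster, so shares of different clusters do not start at the same group.

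Between the outermost Hox genes examined in the 4 clusters the annotation placed 7 miRNA genes, the 5 members and 2 more. Mir615 lies in an intron of Hoxc5 (chr15:103014910-103015001, plus strand), 41475 bases downstream of Mir196a-2 and 21.9 kb from the Hoxc4 end. It had 1772 CPM in replicate 2 and 1796 CPM in replicate 1, a mean of 1784 ± 17 CPM (SD, n = 2), and so stood between Mir10b and Mir196b in both libraries. It gave 13.4 times the reads of Mir196a-2 in replicate 2 and 10.3 times in replicate 1. Gm44463, on the minus strand of the Hoxd cluster, was listed at 0 in both libraries, which leaves room for at most 0.974 CPM in replicate 2 and at most 1.05 CPM in replicate 1 (3 counts, counting error only). In the Hoxb and the Hoxc cluster alike, the miRNA gene nearer the low-numbered end was the more abundant one, with the limit on the miR-196a genes in both cases. Across clusters position and level did not follow the same order. Mir615, at 18.9% of the span of its cluster, lay nearer the low-numbered end than Mir10a and Mir10b and was lower than both. Hox messenger RNAs were not measured in these libraries, so levels of the miRNAs could not be set beside those of their neighbours.

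**Figure D2:**
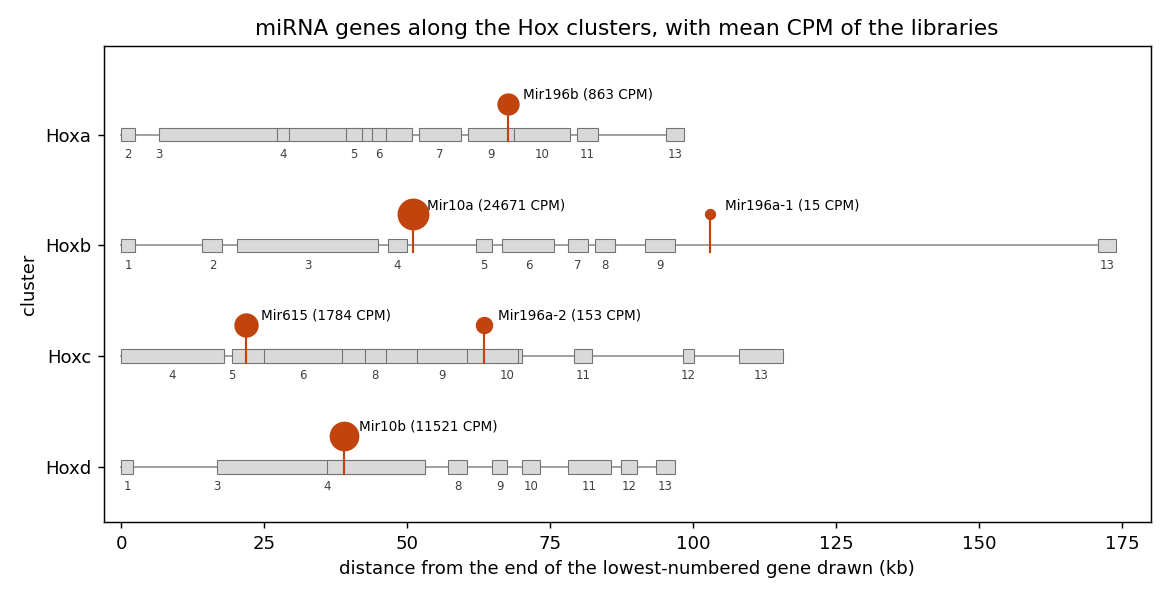
The 4 Hox clusters drawn to scale from the end of the lowest-numbered gene drawn, with annotated spans of the Hox genes examined as boxes numbered by group and miRNA genes as stalks whose dot size grows with mean own-strand CPM. The miR-10 genes sit at 51.0 kb (Hoxb) and 39.0 kb (Hoxd), and Mir196a-1 sits at 103 kb with a mean of 15.0 CPM.

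Between the libraries 4 of the 5 genes were lower in replicate 2 and 1 was higher, and none differed 2-fold. Mir10a had a log2 ratio of replicate 2 over replicate 1 of -0.65 (95% interval of counting error -0.66 to -0.63), and Mir10b one of -0.35 (-0.37 to -0.33). Mir196a-1 had a log2 ratio of -0.64, but its interval, -1.30 to -0.0050, reached close to 0. Mir196a-2 had -0.40 (-0.59 to -0.21). Mir196b went the other way with 0.42 (0.34 to 0.50) and was higher in replicate 2. The intervals of all 5 left out 0, as they did for 59.7% of the 444 genes whose summed count was at least 10. The share was 30.9% for genes lower in replicate 2, where 4 members stood, and 28.8% for those higher, where 1 stood. A 2-fold difference was reached by 0 of the 5 and by 22.3% of the 444 genes (11.3% higher and 11.0% lower in replicate 2). The median log2 ratio was -0.40 over the members and 0.07 over all genes tested, and the median absolute ratios were 0.42 and 0.56. Whether an interval leaves out 0 depends on depth, and all members but Mir196a-1 had a mean of at least 100 counts. Among the 257 genes at that depth, 113 were lower and 102 higher in replicate 2 with intervals that left out 0. Of these 257 genes, 43 differed 2-fold, and their median absolute log2 ratio was 0.46. These intervals hold counting error of 2 libraries, and neither the choice of total nor the spread between animals.

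The libraries also differed in marker miRNAs of other cell types. Mir122, the miRNA of hepatocytes, had 97850 CPM in replicate 2 and 29424 CPM in replicate 1, and its share lowers all other CPM values of replicate 2. With Mir122 left out of the totals, the log2 ratio of Mir10a was -0.54, that of Mir10b -0.25 and that of Mir196b 0.53. Mir126a, an endothelial miRNA, had 45250 CPM in replicate 2 and 84263 CPM in replicate 1. The 10 miRNAs of kidney and other epithelia summed to 1632 CPM in replicate 2, against 1573 CPM in replicate 1, with none at 0. Within this list Mir192 had 147 CPM in replicate 2 and 109 CPM in replicate 1, and Mir194-2 had 260 and 141 CPM. Mir194-1 was also higher in replicate 2, at 3.25 and 1.76 CPM. The rest of the list was only summed, so the even sum does not show that each gene stayed level. The 8 of striated muscle summed to 3337 CPM in replicate 2, against 929 CPM in replicate 1, with Mir133a-2 at 0. The 5 of smooth muscle and fibroblasts summed to 34060 CPM in replicate 2 (40292 CPM in replicate 1), with Mir199a-1 at 0, and the 9 of neurons to 550 CPM in replicate 2 (891 CPM in replicate 1), with Mir9-1, Mir9-2, Mir124a-1 and Mir124a-3 at 0. The 4 neuroendocrine miRNAs, among them Mir375, summed to 37795 CPM in replicate 2, against 39914 CPM in replicate 1, the 4 of leukocytes to 1547 CPM in replicate 2 (1044 CPM in replicate 1), and the 2 of red cells to 276 CPM in replicate 2 (584 CPM in replicate 1). Single genes held most of some of these sums. In replicate 2 and then replicate 1, Mir137 of the neuron list had 457 and 765 CPM. Mir143 of the smooth muscle and fibroblast list had 30258.2 and 37387.5 CPM, and Mir375 had 34382.7 and 34144.5 CPM. Reads mapped to several places are given to no gene in the files. For genes with numbered copies, such as Mir9-1 and Mir9-2, a count of 0 therefore does not show that the miRNA was absent. The sums of lists that hold such copies have the same limit. The part of these cell types in the levels of the Hox cluster miRNAs was not tested.

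The balance within the miR-10 pair and between the families also moved. The log2 ratio of Mir10a to Mir10b was 0.30 lower in replicate 2 (0.92) than in replicate 1 (1.22), and that of the miR-10 pair to the miR-196 genes was 4.70 in replicate 2 and 5.53 in replicate 1. These ratios are formed within a library and do not depend on its total. The ratio to the related miR-99/100 genes moved less. The miR-10 pair gave 1.51 times the reads of Mir99a, Mir99b and Mir100 together in replicate 2 and 1.47 times in replicate 1. Mir99a, the highest of these 3, had 11672 CPM in replicate 2 and 18652 CPM in replicate 1.

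The genes closest in level to Mir10a over the 2 libraries, by distance in log2(CPM + 1), were Mir322, with 18855 CPM in replicate 2 and 35458 CPM in replicate 1, and Mir23b, with 20551 CPM in replicate 2 and 23736 CPM in replicate 1. Their distances were 0.24 and 0.36. Closest to Mir10b were Mir411, at a distance of 0.16, and Mir652, at 0.52. Mir411 had 9164 CPM in replicate 2 and 13532 CPM in replicate 1. With 2 libraries this likeness is one of level.

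**Figure D3:**
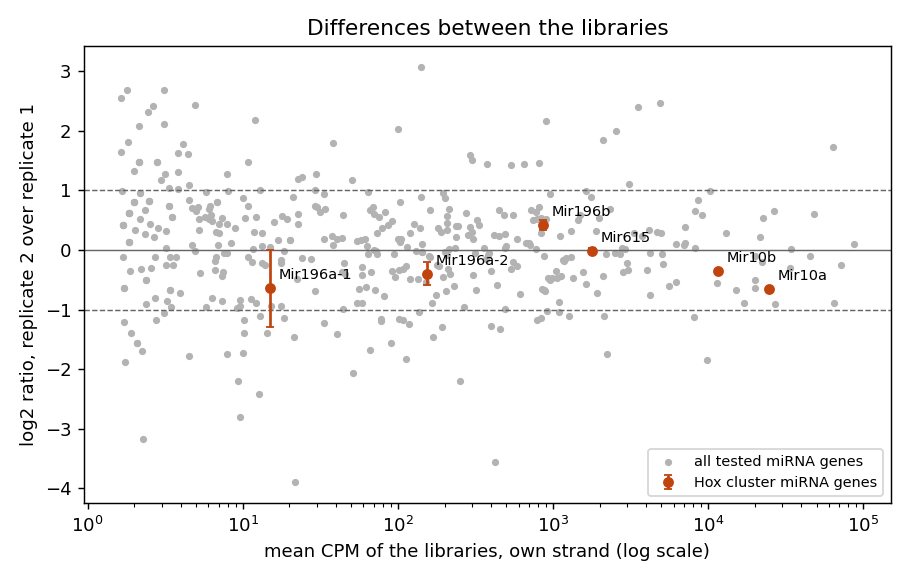
Log2 ratio of replicate 2 over replicate 1 against mean own-strand CPM (log scale) for the 444 miRNA genes with at least 10 counts (grey) and the Hox cluster genes (red, with 95% intervals of counting error). Dashed lines mark 2-fold. Mir10a at -0.65 and Mir196b at 0.42 lie inside them, as does Mir615 at -0.02.

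Since both families are known for repressing Hox messenger RNAs, the annotated 3′ UTRs of 38 Hox genes were searched, on the transcript's strand, for the perfect complement of each seed, taking the longest UTR of each gene. These matches are properties of the annotation and show nothing of binding in the gland. The complement of the miR-196 seed, ACTACCT, was present in 8 of the 38 Hox genes (21.1%) and in 6.09% of 21022 protein-coding genes. In windows of the same length, the 500 bases after the stop codon, it was present in 7 of 33 Hox genes (21.2%) and in 1.98% of 14290 genes. The complement of the miR-10 seed, ACAGGGT, was present in 3 of the 38 Hox genes (7.89%) and in 12.5% of all 21022, and in 1 of 33 Hox windows and 4.77% of 14290 windows. The motifs do not overlap each other. The median UTR had 963 bases in these Hox genes and 960 over all genes. Hox genes are related to each other by descent, so their shares are not counts of independent genes.

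The 3 genes with a miR-10 match were Hoxa3, Hoxb3 and Hoxd1, all of groups 1 to 3, with 1 match each. They are shown with the window that faces the whole miR-10a-5p and the seed match in capitals, on GRCm38.
Hoxa3, chr6:52169653-52169675, minus strand: actctttgataagaaACAGGGTa
Hoxb3, chr11:96347287-96347309, plus strand: tgacttaacgtgaaaACAGGGTa
Hoxd1, chr2:74764930-74764952, plus strand: tagcggaacaaatccACAGGGTa

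The 12 miR-196 matches lay in 8 genes, Hoxa4, Hoxa5, Hoxa7, Hoxa9, Hoxb1, Hoxb6, Hoxb7 and Hoxc8, and in 0 of the 12 Hox genes of group 10 and above. Of these 12, Hoxd11 and Hoxc12 had searched UTRs of only 30 and 92 bases. Over all protein-coding genes the share with a match was 6.09%, so 0 of 12 does not set a boundary. Hoxa7 held 4 of them, the most of the 38, and Hoxc8 held 2.
Hoxa7, chr6:52215400-52215421, minus strand: ggcacagccaaaatACTACCTa
Hoxa7, chr6:52215363-52215384, minus strand: agaggcactcccaaACTACCTa
Hoxa7, chr6:52215231-52215252, minus strand: aaaccatgatcaatACTACCTa
Hoxa7, chr6:52215210-52215231, minus strand: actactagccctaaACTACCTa

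Hoxb8 had no perfect seed match and nevertheless held the longest complement of miR-196a-5p. Its UTR faces the miRNA over all 22 bases, with 21 Watson-Crick pairs and 1 G-U pair, which lies within the seed. Of the 21022 protein-coding genes searched, it was the only one with that many pairs without gaps. In mouse embryos Hoxb8 messenger RNA is known to be cut at this site under the direction of miR-196. The site is printed with the bases that face the seed in capitals.
Hoxb8, chr11:96284888-96284909, plus strand: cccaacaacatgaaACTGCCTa
The site lies between Mir196a-1 and Mir10a in the same cluster, on the strand of both. Of the 38, the gene with the next most pairs was Hoxd8 with 15, a number reached by 924 of the 21022 genes.

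**Figure D4:**
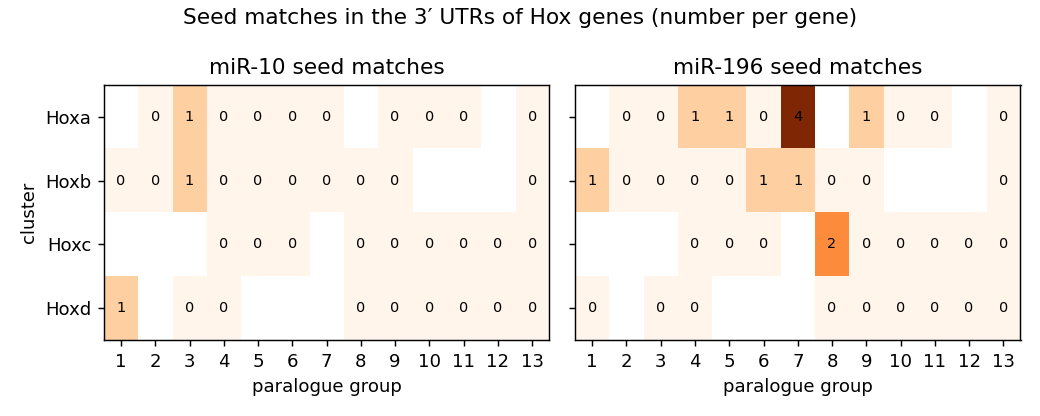
Number of perfect seed complements of miR-10 (left) and miR-196 (right) in the longest annotated 3′ UTR of each of the 38 Hox genes, by cluster and paralogue group, with white where no gene was searched. Matches for miR-10 fall in groups 1 to 3, and Hoxa7 holds 4 for miR-196.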

How the data were processed

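For each library the authors deposited raw counts of reads per miRNA gene, using the mm10 build and GENCODE M21, per the file descriptions. Which aligner and counter made them is not given in the sources used here. Of the 3 count columns, read from their values as without strand, own strand and opposite strand, the own-strand one was scaled to CPM, leaving out the 4 rows that are not genes. All 2202 identifiers matched the annotation. The mice are hybrids and the build is that of C57BL/6, and effects of CAST/EiJ alleles were not examined.

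The members and lists were chosen with earlier results of these data known. Named genes were the members, other miRNA genes within the Hox clusters, Mir99a, Mir99b, Mir100, the 2 genes nearest in log2(CPM + 1) to each miR-10 gene, and neighbouring or matching Hox genes. 1 Hox gene is not reported here, and it was left out of the maps, cluster lengths and searches of Hox UTRs. Ratios added 0.5 counts. Intervals at 95% (Wilson for shares, exact binomial for ratios) cover counting error only, since no molecular identifiers are recorded. With 1 group no p-value was computed. The ratio and its interval were tested on simulated data that held counting error only, so this test shows nothing of the spread between libraries. Alternatives were counts without strand, other totals, TMM factors (edgeR 4.0.16), DESeq2 1.42.0 size factors, other minimums and pseudocounts, and single libraries. R 4.3.3, Python 3.11.15, scipy 1.17.1 and pandas 2.3.3 were used.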

Additional observations from a re-analysis of the deposited data

How the results depend on the processing

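Of 86 alternatives, 62 stayed within the spread between libraries, within the counting interval for ratios between libraries, or within 1.5 times for the share of genes that differ 2-fold. Single libraries, replicate 2 and then replicate 1, stay within it by construction. They gave 3.05% and 4.40% for the combined share of the 5 genes, 0.92 and 1.22 for the log2 ratio of Mir10a to Mir10b, and 4.70 and 5.53 for that of the miR-10 pair to the miR-196 genes. Counts without strand also left the log2 ratios within a library at 1.07 and 5.11 by construction, since the counts of the members were the same. A pseudocount of 5 hardly changes counts this large. With all reads as the denominator the combined share was 1.36%, against 3.72%, because unmapped and unassigned reads enter the total. Per base of the annotated hairpin, an alternative chosen after the data were examined, the log2 ratio of Mir10a to Mir10b was 0.38, against 1.07. The share of genes that differ 2-fold was 14.7% with no minimum, where genes at 0 in both libraries are included, and 41.4% with at least 1 count, also chosen after the data were examined, against 22.3%. All 30 alternatives of the ratios between libraries kept their sign, but only 18 stayed within the counting interval. The ratios of Mir10a and Mir10b left it under every alternative except the pseudocount. The range was -0.78 to -0.54 for Mir10a, -0.48 to -0.25 for Mir10b and 0.29 to 0.53 for Mir196b. No paired analysis was possible because there is only 1 group. Depth limits Mir196a-1 most, at 36 and 52 reads.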
